A study of Mus musculus with 8 samples.

Results

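The genes followed here license DNA for replication. They are the 6 subunits of the MCM2-7 helicase (*Mcm2*, *Mcm3*, *Mcm4*, *Mcm5*, *Mcm6* and *Mcm7*), the loading factors *Cdc6* and *Cdt1*, the licensing inhibitor *Gmnn* and the helicase activation factor *Mcm10*, 10 of the 20660 genes to which array probes could be matched. They were chosen by name, and every probe whose RefSeq transcript belongs to them was taken, which gave 11 probes because *Cdc6* has 2. All 11 were well above background on all 8 arrays, 0 of their spots were saturated, and all 11 passed the filter on dim probes. The arrays were made from wild-type mouse embryos labelled as C57bl6/129, collected at embryonic day 8.5 (E8.5) without any treatment. For 4 embryos the father was WT (*Eed* wt/wt) and for the other 4 he was HET (*Eed* hypo/wt) for the Eedl7Rn5-1989SB allele, a hypomorphic allele of *Eed*, which encodes a core subunit of the Polycomb repressive complex PRC2. All mothers were wild-type females, C57bl6/129 by the labels, while a legend of the study gives c57bl/6J, and each group held 2 females and 2 males.

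Licensing prepares replication origins in G1. The origin recognition complex binds DNA and, with Cdc6 and Cdt1, loads pairs of MCM2-7 rings in an inactive form. In S phase the kinases CDK and DDK switch the rings on with Cdc45, GINS and Mcm10. Geminin, the product of *Gmnn*, binds Cdt1 from S phase to mitosis and so prevents a second loading within a cycle. Transcription of most of these genes is driven by E2F factors in cycling cells, and the E8.5 embryo is made largely of cells that divide fast. By RNA-seq of pooled preimplantation embryos, the study reported lower *Mcm3* RNA with *Eed* hypo/hypo fathers than with *Eed* wt/wt fathers. The stage, the fathers, the embryo genotype and the assay there differ from those here. The study calls the progeny of *Eed* hypo/hypo fathers there heterozygous, so embryo and father genotype differed together in that comparison. The question here is whether the licensing genes differed in wild-type E8.5 embryos according to the father's genotype.

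E2F recognition letters are shown because most of the promoters on hand for these genes hold them, and the choice of genes did not use them. RefSeq promoters on GRCm38.p6, each 250 bases before to 50 bases after a transcript start, were on hand for 8 of the 10 genes and not for *Mcm4* and *Gmnn*. They were searched on both strands for the spellings TTTCCCGC, TTTCGCGC, TTTGCCGC and TTTGGCGC. A match was found for 6 of the 8 genes, while 2.26% of the 32851 promoters in the table hold one. Each window below is 30 bases, read 5′ to 3′ on the gene's own strand with the match in capitals. Where capitals read GCGGGAAA the match lies on the opposite strand, and the run of 12 capitals in *Mcm5* is a pair of overlapping matches, 1 on each strand.
Mcm3, chr1:20820266-20820295 (minus strand): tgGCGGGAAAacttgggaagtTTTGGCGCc
Mcm5, chr8:75109347-75109376 (plus strand): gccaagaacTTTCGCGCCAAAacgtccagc
Mcm6, chr1:128359734-128359763 (minus strand): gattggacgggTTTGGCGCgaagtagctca
Mcm7, chr5:138171849-138171878 (minus strand): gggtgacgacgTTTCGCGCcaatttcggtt
Cdt1, chr8:122568035-122568064 (plus strand): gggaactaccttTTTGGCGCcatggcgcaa
Cdc6, chr11:98908002-98908031 (plus strand): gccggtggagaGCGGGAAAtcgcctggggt

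Positions are counted from the first transcribed base as 1, with negative positions before it. The printed matches lie at 20 to 46 in *Mcm3*, at 17 to 24 in *Mcm7* and at 33 to 40 in *Cdt1*, just after the start. They lie before it in the other 3 genes, at -47 to -40 in *Mcm6*, at -138 to -131 in *Cdc6* and at -153 to -142 in *Mcm5*. Further matches outside the printed windows lie at -110 to -103 and -106 to -99 in *Mcm6* and at -165 to -158 in *Mcm7*. The CCAAT letters were found in the promoters of 6 of the 8 genes, all but *Cdt1* and *Cdc6*, but 37.4% of all promoters hold them. These matches describe the letters and say nothing of binding in these embryos.

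Each array gives a log2 signal for each probe, shifted so that the 75th percentile of the array's spots is 0. A log2 signal depends on the probe as well as on the transcript, so probes of different genes were not ranked against each other. The arrays showed between 29203 and 39530 probes well above background, and the correlation between any pair of arrays over the 33093 tested probes was between 0.958 and 0.993. Wild-type father replicate 1 and heterozygous father replicate 3 had the most probes above background (39530 and 38878), and the negative control spots of heterozygous father replicate 4 were brighter than those of the others (a median log2 signal of 7.29 against 5.43 to 5.73). Each father group had its own slide, and slide and father cannot be told apart. The embryos carry separate labels, but 3 of those from wild-type fathers share the first part of their code (2.2), and the study's legends differ on how many wild-type males were used, so some embryos may share a father. The 8 markers of the embryo proper, the 7 of primitive erythroid cells and the 8 of yolk sac endoderm were well above background on all arrays, as were 4 of the 8 genes of trophoblast and decidua with a matched probe, while *Tpbpa* and *Cts8* of that list were so on 0 arrays. In RNA from embryos, fewer cycling cells and less RNA per cell cannot be told apart.

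No difference between the father groups was detectable at the helicase and licensing genes. Of the 11 probes, 0 passed the threshold of the study (a fold of 2 or more with an adjusted p under 0.01 in limma, Benjamini-Hochberg adjustment), where 0% of all 33093 tested probes passed it too. At an unadjusted p under 0.05, 0 of 11 passed against 4.4% of all probes, and the father groups were apart without overlap at 0 of 11 against 3.23%. The 95% interval of the difference stayed within 1.41-fold in either direction at every member probe. The log2 fold change (heterozygous minus wild-type father) was above 0 at 10 of the 11 probes, against 50.7% of all probes and 62.8% of the brightest 10% of tested probes. With each array aligned on its median, the log2 fold change was above 0 at 5 of 11, against 24.1% of all probes. The median over the 10 genes, with the brighter *Cdc6* probe, was 0.06, and over all tested probes it was 0. In the brightest 10% of tested probes it was 0.02. Aligned on the medians, the members had -0.04 and all tested probes -0.10. That alignment moves every probe by the same amount, so it cannot change the gap between the members and the rest.

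**Figure D1:**
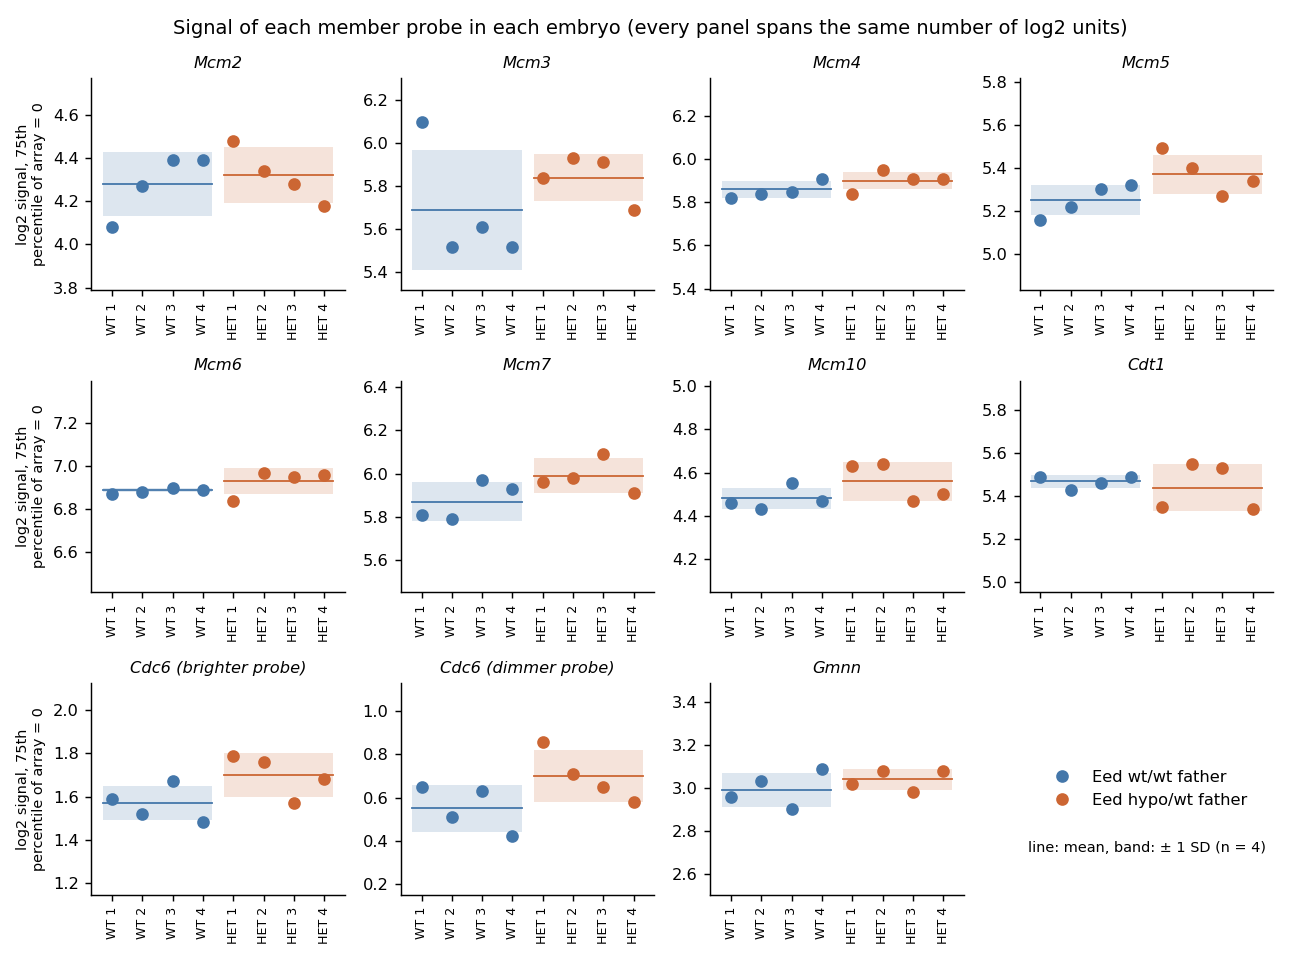
Log2 signal (75th percentile of the array = 0) of each of the 11 member probes in each of the 8 embryos, with blue points for *Eed* wt/wt fathers and orange points for *Eed* hypo/wt fathers; lines are group means and bands ± 1 SD (n = 4). Every panel spans the same number of log2 units, and in each the points of both groups overlap, with *Mcm3* in wild-type father replicate 1 (6.10) standing above the other 3 of its group (5.52 to 5.61).

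Among the helicase subunits, *Mcm3* had the largest difference and the largest spread. Its log2 signal in wild-type father replicates 1 to 4 was 6.10, 5.52, 5.61 and 5.52, and in heterozygous father replicates 1 to 4 it was 5.84, 5.93, 5.91 and 5.69. Wild-type father replicate 1 was the highest of all 8 embryos and the other 3 of its group were the lowest, so the heterozygous father group lay inside the range of the wild-type one. The means were 5.69 ± 0.28 (SD, n = 4) and 5.84 ± 0.11 (SD, n = 4). The log2 fold change was 0.16 (standard error 0.14, 95% interval -0.18 to 0.49), with a limma adjusted p of 1. Without wild-type father replicate 1 it was 0.29, with an unadjusted limma p under 0.05. No other embryo, when left out, brought any member probe under that value.

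The embryo that stands apart at *Mcm3* is also the only one of its group with another code. The 3 embryos with code 2.2 had a mean log2 signal of 5.55 at *Mcm3*, and the other 5 embryos, 1 from a wild-type father and 4 from heterozygous fathers, had 5.90, without overlap. This separation held at 1 of the 11 member probes and at 3.38% of all tested probes. *Prim2*, a primase subunit gene that lies with *Mcm3* on chromosome 1, split the embryos in the same way and much further. Its log2 signal was -0.73, -0.67 and -0.75 in wild-type father replicates 2, 3 and 4, against 1.68 in wild-type father replicate 1 and 1.77 to 1.82 with heterozygous fathers. Between *Mcm3* and *Prim2* in the order of the RefSeq gene table, 22 other genes had tested probes, and 0 of these 27 probes separated the embryos by code. Of the 10 tested probes among the 20 listed genes on either side of *Mcm3*, 0 did. Beside 3.38% of all tested probes, these probes are too few to tell the stretch from the rest. *Prim2* and this stretch were picked after the values were seen. With the first part of the code as a random block, the log2 fold change of *Mcm3* between the father groups was 0.07 in place of 0.16, with an unadjusted p above 0.05 in both fits. Code 2.2 occurred only with wild-type fathers, and each other code belonged to 1 embryo. This block therefore cannot separate code from father.

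**Figure D2:**
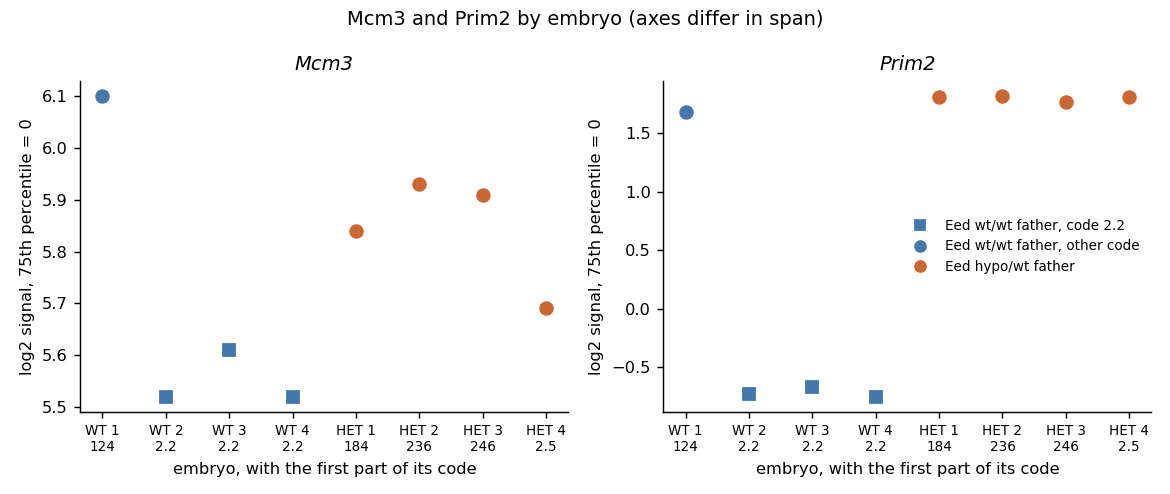
Log2 signal (75th percentile of the array = 0) of *Mcm3* on the left and *Prim2* on the right in each embryo, labelled with the first part of its code; squares are the 3 embryos with code 2.2, and the axes differ in span. At both genes these 3 lie below all other embryos, by a mean of 5.55 against 5.90 at *Mcm3* and of -0.72 against 1.78 at *Prim2*.

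*Mcm5* and *Mcm7* had the next largest differences in the ring. *Mcm5*, which closes the gate between Mcm2 and Mcm5 through which the ring takes up DNA, measured 5.16, 5.22, 5.30 and 5.32 with wild-type fathers and 5.49, 5.40, 5.27 and 5.34 with heterozygous fathers. All 4 heterozygous father embryos were above the wild-type median, and replicate 3 lay within the wild-type range. The log2 fold change was 0.12 (standard error 0.08, 95% interval -0.06 to 0.30, limma adjusted p of 1). *Mcm7*, a subunit of the catalytic Mcm4-Mcm6-Mcm7 core, measured 5.81, 5.79, 5.97 and 5.93 against 5.96, 5.98, 6.09 and 5.91, with a log2 fold change of 0.11 (standard error 0.07, 95% interval -0.06 to 0.29). The highest embryo was heterozygous father replicate 3 and the lowest wild-type father replicate 2, and the groups overlapped between 5.91 and 5.97.

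*Mcm4* and *Mcm6*, the other subunits of that core, were the steadiest of the members. *Mcm6* spanned only 0.13 on the log2 scale over all 8 embryos, from 6.87 to 6.90 in the wild-type father group and 6.84, 6.97, 6.95 and 6.96 in heterozygous father replicates 1 to 4. *Mcm4* spanned 0.13 as well, with 5.82, 5.84, 5.85 and 5.91 against 5.84, 5.95, 5.91 and 5.91. Their pooled within-group SDs, 0.0448 and 0.0414, were below those of all but 1.21% and 0.846% of tested probes. The log2 fold changes were 0.04 (95% interval -0.10 to 0.18) for *Mcm6* and 0.05 (95% interval -0.09 to 0.19) for *Mcm4*. Both were below 0 with arrays aligned on their medians, at -0.06 each.

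*Mcm2*, the subunit whose tail is a main target of the DDK kinase and binds histones, varied more between embryos than between groups. It measured 4.08, 4.27, 4.39 and 4.39 with wild-type fathers and 4.48, 4.34, 4.28 and 4.18 with heterozygous fathers. The wild-type father group held the lowest embryo and the heterozygous father group the highest, and 2 of the 4 heterozygous father embryos were above the wild-type median. The log2 fold change was 0.04 (standard error 0.10, 95% interval -0.20 to 0.28), and it was below 0 without wild-type father replicate 1, without heterozygous father replicate 1, and with arrays aligned on their medians.

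The loading factors differed in direction, each within the spread between embryos. The brighter *Cdc6* probe, for the ATPase that recruits the rings to the origin recognition complex, measured 1.59, 1.52, 1.67 and 1.48 with wild-type fathers and 1.79, 1.76, 1.57 and 1.68 with heterozygous fathers. The dimmer probe measured 0.65, 0.51, 0.63 and 0.42 against 0.86, 0.71, 0.65 and 0.58. In both probes heterozygous father replicate 1 was highest and wild-type father replicate 4 lowest, and the groups overlapped. Their log2 fold changes were 0.14 (standard error 0.08, 95% interval -0.05 to 0.32) and 0.15 (standard error 0.09, 95% interval -0.06 to 0.36), each with a limma adjusted p of 1. The 2 probes followed each other over the embryos with r = 0.86 (n = 8). They parted with another background correction and quantile normalization (normexp), where they had 0.03 and 0.26, the latter with an unadjusted limma p under 0.05.

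*Cdt1*, the partner that holds MCM2-7 during loading, was the only member below 0. It measured 5.49, 5.43, 5.46 and 5.49 with wild-type fathers and 5.35, 5.55, 5.53 and 5.34 with heterozygous fathers. The wild-type father embryos lay together, and the heterozygous father embryos lay to either side of them in pairs. The log2 fold change was -0.02 (standard error 0.07, 95% interval -0.20 to 0.15), and it was above 0 with normexp and without heterozygous father replicate 1 or 4.

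The inhibitor *Gmnn* measured 2.96, 3.03, 2.90 and 3.09 with wild-type fathers and 3.02, 3.08, 2.98 and 3.08 with heterozygous fathers. The values interleaved, and the log2 fold change was 0.05 (standard error 0.07, 95% interval -0.11 to 0.20). *Mcm10*, which binds the loaded helicase when it is switched on and is not a ring subunit, measured 4.46, 4.43, 4.55 and 4.47 against 4.63, 4.64, 4.47 and 4.50. Heterozygous father replicates 1 and 2 were above every wild-type father embryo and the other 2 were within their range. Its log2 fold change was 0.08 (standard error 0.07, 95% interval -0.08 to 0.24). With arrays aligned on their medians both genes were below 0, *Gmnn* at -0.06 and *Mcm10* at -0.03.

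**Figure D3:**
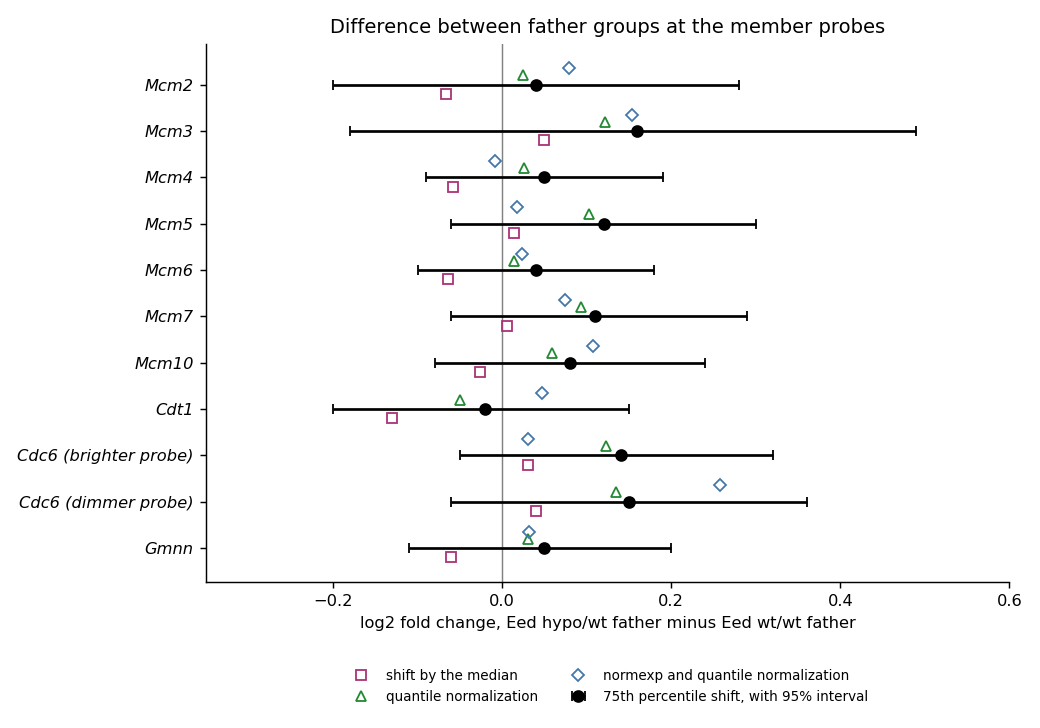
Log2 fold change (*Eed* hypo/wt father minus *Eed* wt/wt father) of each member probe, with its 95% interval from limma in black and the value under a shift by the median, quantile normalization, and normexp with quantile normalization as open symbols. All 11 intervals cross 0, and the squares for the shift by the median lie about 0.1 to the left of the black points.

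The members varied little between embryos of a group. Their pooled within-group SD had a median of 0.0834 on the log2 scale, against 0.214 for all tested probes and 0.0986 for the brightest 10%. The mean deviation of the 6 ring genes from their own means was -0.04, -0.10, -0.01 and -0.02 in wild-type father replicates 1 to 4 and 0.06, 0.08, 0.05 and -0.02 in heterozygous father replicates 1 to 4. The lowest embryo was from a wild-type father and the highest from a heterozygous father, and heterozygous father replicate 4 lay within the wild-type range.

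The ring subunits varied largely separately on this scale. Over the 8 embryos, 10 of the 15 pairs of ring genes had a correlation above 0, with values from -0.39 (*Mcm2* and *Mcm3*) to 0.84 (*Mcm4* and *Mcm6*) and a median of 0.17. All points share their arrays and the scaling of each array, and aligned on the medians the median correlation was 0.98. An array's 75th percentile lay 3.04 above its median in heterozygous father replicate 3 and 3.63 in wild-type father replicate 1. On the other arrays it lay 4.08 to 4.35 above. Changing the alignment therefore moves every probe on those arrays by less than on the rest. The closest pairs among all members were *Mcm10* with *Cdc6* (r = 0.91), *Mcm5* with *Mcm10* (r = 0.85), *Mcm4* with *Mcm6* (r = 0.84), *Mcm2* with *Mcm5* (r = 0.77) and *Mcm5* with *Cdc6* (r = 0.74), each over 8 embryos. *Cdc6* and *Mcm5* carry the E2F-type letters shown above and *Mcm10* does not within its window. Outside the members, the probes most like the mean of the 6 ring genes over the 8 embryos belonged to *Spon2* (r = 0.984), *Pold2* (r = 0.981), *Smg6* (r = 0.977), *Rtl6* (r = 0.976) and *Pef1* (r = 0.967). These 5 were picked as the highest among all tested probes of named genes, over only 8 embryos. Their r values were not tested against such picking.

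**Figure D4:**
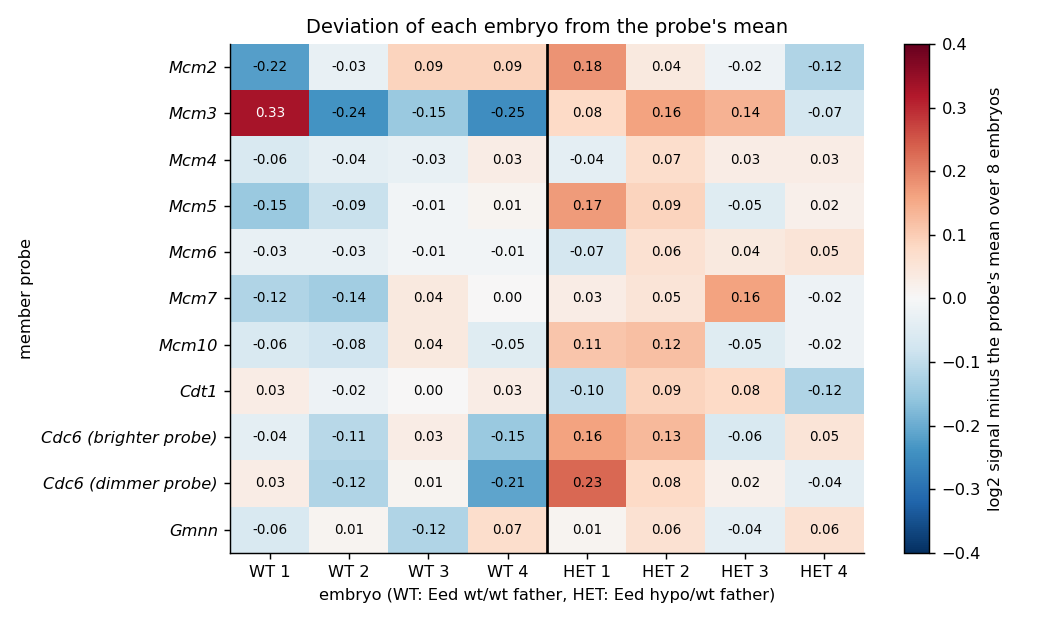
Log2 signal of each embryo minus the mean of the probe over all 8 embryos, for the 11 member probes (rows) and the 8 embryos (columns, with a line between the father groups); red is above and blue below the mean. The largest deviations are in *Mcm3*, at 0.33 in wild-type father replicate 1 and -0.25 in replicate 4, and heterozygous father replicate 2 is the only embryo above the mean at all 11 probes.

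No difference by the sex of the embryo was detectable at these genes either. In a limma fit with father and sex, 0 of the 11 member probes were called between females and males against 0.0332% of all probes (11 probes), and 0 of 11 had an unadjusted p under 0.05 against 3.28% of all probes. The largest difference was *Mcm3*, with a female mean of 5.83 ± 0.22 (SD, n = 4) and a male mean of 5.70 ± 0.21 (SD, n = 4), a log2 difference of 0.14 (95% interval -0.21 to 0.48). *Mcm2* had the largest in the other direction, -0.11 (95% interval -0.35 to 0.13). The effect of the father was then compared between the sexes. At 0 of the 11 probes did this interaction have an unadjusted p under 0.05, against 2.23% of all probes, and over all 33093 probes 0 were called. *Mcm3* had the largest value, with the father groups 0.36 apart in males and -0.05 in females, a difference of -0.40 (standard error 0.27, adjusted p = 0.996 from limma), where 2 embryos stand for each father and sex.

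The rest of the licensing and fork machinery was covered by lists of 76 other genes. Of these, 72 were tested, 0 were called in limma, and 2 had an unadjusted p under 0.05, both higher with heterozygous fathers, beside 4.4% of all tested probes. The father groups did not overlap at 3 of the 72, *Rfc4*, *Mybl2* and the single-strand binding protein gene *Rpa1* (log2 fold change 0.12), beside 3.23% of all tested probes. Their median log2 fold change was 0.03 and 50 of the 72 were above 0, beside a median of 0 and 50.7% of all tested probes. Aligned on the medians, where all tested probes had a median of -0.10 and 24.1% were above 0, the 72 genes had -0.07 and 17 above 0. The counts above 0 given below for origin recognition, helicase activation and licensing turnover then became 0, 3 and 2. *Rfc4*, a subunit of the clamp loader RFC, measured 4.73, 4.61, 4.47 and 4.63 with wild-type fathers and 4.82, 4.91, 4.8 and 4.82 with heterozygous fathers. *Mybl2*, a MuvB partner that activates late cell cycle genes, measured 4.67, 4.76, 4.81 and 4.55 against 5.05, 4.82, 4.85 and 4.96. In both genes every heterozygous father embryo was above every wild-type father embryo, which at *Mybl2* rests on 4.82 against 4.81. Their log2 fold changes were 0.23 (standard error 0.08) and 0.22 (standard error 0.09), with a limma adjusted p of 1 for each. The second *Rfc4* probe had 0.51 and the second *Mybl2* probe 0.09.

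Of the origin recognition complex, which marks the site of loading, all 6 genes were tested and 2 were above 0, with a median of -0.05. *Orc5* was lowest at -0.17 (standard error 0.09) and *Orc3* and *Orc2* highest at 0.05, although a second *Orc3* probe had -0.18. Of the 4 other members of the MCM family or its binding partners, 3 were tested. *Mcm8* and *Mcm9*, which form a helicase for recombination, had 0.15 and 0.16, and the MCM binding protein gene *Mcmbp* had -0.05. Of 17 genes for helicase activation and origin firing, 13 were above 0, from the kinase gene *Cdc7* at -0.21 (standard error 0.28) to the GINS subunit gene *Gins3* at 0.14 (standard error 0.10). A second *Cdc7* probe had -0.36. None of these 3 lists held a gene with an unadjusted p under 0.05.

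Among the genes for licensing turnover and cell cycle control, 13 of 15 were tested and 11 were above 0, from *Fbxo5*, an inhibitor of the anaphase-promoting complex, at -0.04 to the deubiquitinase gene *Usp37* at 0.22 (standard error 0.14). *Ccne2* was well above background on 0 arrays, and no probe was matched to *Skp2*. Of the geminin relatives, *Mcidas* had 0.19 (standard error 0.11) and *Gmnc* was above background on 0 arrays. At the brightest tested probe of each, the 16 fork genes ran from *Supt16*, for a subunit of the histone chaperone FACT, at -0.06 to *Rfc4* at 0.23. Their median was 0.07, and *Pcna*, the sliding clamp, had -0.01. A second probe of the fork gene *Dna2* had -0.54, against 0.11 at its brightest. The 16 genes of E2F, DP and pocket proteins ran from *E2f5* at -0.31 (standard error 0.20) to *Mybl2* at 0.22, with a median of 0.02. A second *E2f7* probe had 0.46, against 0.02 at its brightest. The activator genes *E2f1*, *E2f2* and *E2f3* had 0.04, 0.02 and -0.04, each within the spread between embryos, and a second *E2f3* probe had 0.05. Genes of quiescence and cell cycle exit had a median of 0.08 over 6 genes, with 0 at an unadjusted p under 0.05.

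**Figure D5:**
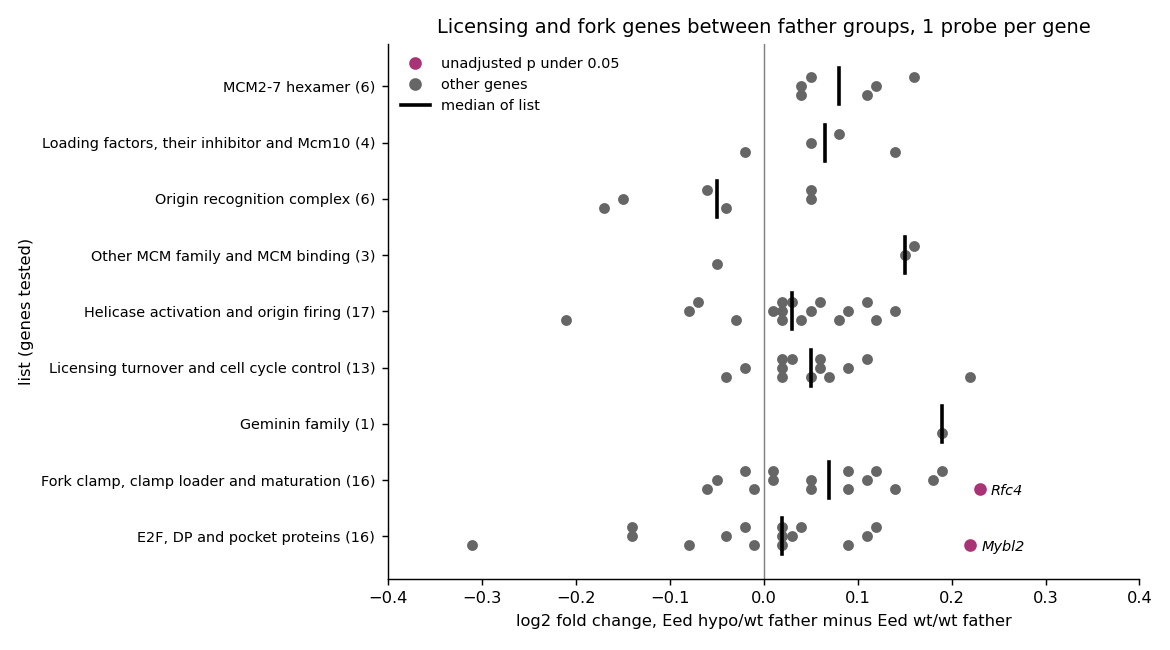
Log2 fold change (*Eed* hypo/wt father minus *Eed* wt/wt father) of each tested gene, 1 probe per gene, in the 2 member lists and 7 further lists, with the number of genes tested in brackets; bars are list medians. *Rfc4* and *Mybl2* are the genes with an unadjusted p under 0.05. At the probe shown all genes lie between -0.31 and 0.23, while some second probes, which are not shown, lie further out.

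Markers of cell types that divide at different rates were set beside these values. The summed signal of the 7 primitive erythroid markers was between 9.0 and 10.25 on the log2 scale with wild-type fathers and between 9.70 and 10.04 with heterozygous fathers, and all 7 genes had a log2 fold change above 0 (6 of 7 with normexp), with 0 at an unadjusted p under 0.05. The 8 yolk sac endoderm markers summed to between 8.90 and 9.40 and between 9.18 and 9.26, and the 8 markers of the embryo proper to between 4.58 and 4.88 and between 4.64 and 4.77. Among the embryo markers, *Pax3*, a gene of the dorsal neural tube and somites, had a log2 fold change of -0.22 at both of its probes (limma adjusted p of 1, unadjusted p under 0.05 at the brighter), with overlap of the groups. The 8 embryo markers had a median of 0.01, with 4 above 0. The 6 tested genes of trophoblast and decidua summed to between 4.37 and 5.56 and between 4.38 and 5.57. Among them *Prl8a2*, a decidual prolactin gene, had a log2 fold change of -2.45 (standard error 0.75, limma adjusted p of 1, unadjusted p under 0.05). Its groups did not overlap, as at 3.23% of all tested probes. Its SD was 0.57 with wild-type fathers and 1.58 with heterozygous fathers (n = 4 each). The 6 genes had a median of -0.08, with 2 above 0. The part of these cell types in the members' values was not tested.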

How the data were processed

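RNA of 8 wild-type E8.5 mouse embryos, 4 for each father's genotype, was hybridised to single-colour Agilent 8x60K arrays, 1 array per embryo. Per the labels and the methods, spots were quantified with Agilent Feature Extraction (version 11.0.1.1), and the signal the authors deposited for each spot is an intensity from which background and spatial trend have been removed, with no scaling across arrays. A series-wide file, also deposited, repeats these intensity values within 0.497% and served as an alternative. The headers give build mm9, and no probe coordinate is printed.

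Each array's log2 intensity was lowered by its own 75th percentile, taken over every spot that is not a control. Spots marked as outliers were dropped, and replicate spots were averaged into 1 value per probe. A probe entered the tests if its mean was above the lowest 20% and at least 4 arrays had it well above background. The father groups were compared over all 33093 tested probes with limma 3.58.1 (in R 4.3.3, with version 1.17.8 of data.table), and sex and its interaction with the father were fitted as further terms. P-values and intervals measure the spread between these embryos, taken as independent, and not the spread between fathers. Some embryos may share a father. The test was checked on simulated data, with embryos independent of each other and changes larger than any at the members. That check does not bear on differences as small as theirs. Symbols came through RefSeq accessions of the GRCm38.p6 annotation, used for names and gene order only (27235 of 28685 probes with an accession matched). Promoter letters were searched in RefSeq promoters with Python 3.11.15, and figures were drawn with matplotlib 3.10.9, numpy 2.4.6 and pandas 2.3.3.

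The genes and lists were chosen with earlier results of these data known. The genes named are all members, each list's genes with an unadjusted p under 0.05 and its largest rise and fall, and the 5 probes most like the mean of the ring genes. *E2f1*, *E2f2*, *E2f3*, *E2f7*, *Dna2*, *Pcna*, *Orc2*, *Mcm8*, *Rpa1*, *Prim2*, *Med8*, *Ccne2*, *Gmnc*, *Pax3*, *Prl8a2*, *Tpbpa* and *Cts8* are named beside the rule. For a gene with several probes the brightest tested one stands. The alternatives were other scalings, filters, covariates, blocks, weights, and each embryo left out.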

Additional observations from a re-analysis of the deposited data

Results flagged for a closer look

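In 2 of the 26 groups of 4 embryos examined over the members, 1 embryo stood further from the others than Dixon's 95% limit for a group of 4. Chance gives about 1 in 20 groups, or 1.3 of 26, and 6.33% of the groups of all tested probes passed the limit. At *Mcm3*, wild-type father replicate 1 (log2 signal 6.10) was separated from the nearest of its group (5.61) by a gap of 0.839 of the range of the group. At *Mcm6*, heterozygous father replicate 1 (6.84) was separated from the nearest of its group (6.95) by 0.858 of the range, in a gene whose 8 values span 0.13.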

How the results depend on the processing

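Over 220 values of the 11 member probes under alternatives, 208 kept their direction and 12 changed it. A shift by the median gave -0.066 for *Mcm2*, -0.058 for *Mcm4*, -0.064 for *Mcm6*, -0.026 for *Mcm10* and -0.061 for *Gmnn*, since it moves every probe down by the same amount. It also gave a median over the members of -0.042 in place of 0.064, and a median correlation of the ring genes of 0.98 in place of 0.17 (an alternative chosen after seeing the data). It left 0 list genes outside the members at an unadjusted p under 0.05 in place of 2, beside 479 of all 33093 tested probes in place of 1455. Normexp gave -0.009 for *Mcm4*, 0.047 for *Cdt1* and 10 such list genes, beside 2596 of all 33093 tested probes, and the cause was not tested. With an embryo left out, *Mcm2* ran from -0.028 to 0.087 and *Cdt1* from -0.059 to 0.011. The list genes then ran from 1 to 4, beside 909 to 3029 of all tested probes. Without both arrays with the most probes above background, *Mcm2* had -0.013.

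No member probe was called under any alternative. An unadjusted p under 0.05 was reached by *Mcm3* without wild-type father replicate 1 (0.293) and without that array and heterozygous father replicate 3 (0.271), by the brighter *Cdc6* probe with array weights (0.175), and by the dimmer one with normexp (0.258), all from limma. Over all probes the number called ran from 0 to 1 with an embryo left out, *Prim2* without wild-type father replicate 1 and *Med8* without heterozygous father replicate 4, and was 1, *Prim2*, without both arrays. The number at an unadjusted p under 0.05 was 479 with a shift by the median, 2596 with normexp, 5360 with no filter, 680 with the code as a random block (estimated correlation 0.541), 3056 with array weights, and from 909 to 3029 with an embryo left out.

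The replicate numbers gave no sign of pairing the embryos, as the deviations of embryos with the same number correlated at -0.547, -0.0453, -0.586 and -0.149. Differences between whole arrays enter these values too, so they cannot exclude a pairing. With the replicate number as a block, 0 probes were called, 874 had an unadjusted p under 0.05 in place of 1455, and 0 of the 11 member probes did.

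The number of arrays limits the precision, and with 4 embryos per group a difference at *Mcm3* of up to 1.41-fold lies within the interval. Slide and father cannot be told apart.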
